A study of Mus musculus with 8 samples.

Results

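The genes described here are a set of 10 that encode neutrophil granule proteins, alarmins and the receptor that drives granulocyte production: S100a8, S100a9, Camp, Ngp, Ltf, Lcn2, Elane, Mpo, Prtn3 and Csf3r. The set was given as a list of names. A gene was taken as measured where a transcript cluster, the array's unit of 1 gene or transcript locus, carried that symbol and no other in the platform annotation. This held for 9 of the 10 genes, with 1 cluster each, among 24111 clusters in all. Ltf, which encodes lactoferrin, had no cluster with that symbol alone and was not analysed.

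The expression of these genes was measured in sorted mast cells (MC) of tumor-bearing C57BL/6J mice. Cells of the murine pancreatic cancer line Panc02 had been injected subcutaneously into the flanks, and once tumors reached 100 mm3 the mice were randomized to placebo or to 40 mg/kg of DC101, a rat antibody that blocks the receptor VEGFR2. MC were taken from the tumors and, by lavage, from the peritoneum of tumor-bearing mice, and both kinds of suspension were sorted after staining with DAPI and for CD45, CD11b, CD117 and FceRI. The 4 groups were tumor MC with placebo, tumor MC with DC101, peritoneal MC with placebo and peritoneal MC with DC101, and 2 arrays were available for each. All 4 groups came from mice that carried a Panc02 tumor, so none stands for a healthy mouse, and the labels do not say whether the 2 arrays of a group came from separate mice. The p-values therefore reflect array-to-array spread, part of which may be technical.

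Neutrophils build their granules in sequence. The azurophil (primary) granules of promyelocytes receive myeloperoxidase (Mpo) and the serine proteases neutrophil elastase (Elane) and proteinase 3 (Prtn3), and the secondary granules of later stages receive lactoferrin (Ltf), lipocalin 2 (Lcn2), the cathelicidin precursor (Camp) and neutrophilic granule protein (Ngp). S100A8 and S100A9 pair to form calprotectin, an abundant cytosolic protein of neutrophils and monocytes that acts as an alarmin once released and is recognised by TLR4 and RAGE, and Csf3r encodes the receptor for the granulocyte growth factor G-CSF. Mast cells are also myeloid cells filled with granules, but their main granule proteases are chymases, tryptases and carboxypeptidase A3, and none of the 10 genes is a defining mast cell gene.

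The 250 bases before the start site of each of the 10 genes in the mouse assembly GRCm38.p6 were searched on both strands for 3 motifs. The start used matched an end of the gene in the RefSeq table for every gene except Csf3r. Capitals mark GAGGAA (or TTCCTC on the other strand), a core of the type bound by PU.1, then TTNNGNAA (in either orientation), a spacing of the type bound by C/EBP factors, and TATAAA. No motif bases overlapped, although in S100a8 a TTCCTC and the TATAAA directly adjoin. The windows of the 4 genes that were lowest in tumor MC with placebo relative to the peritoneum are shown first, followed by those of the calprotectin pair.
Prtn3, chr10:79879417-79879666, plus strand: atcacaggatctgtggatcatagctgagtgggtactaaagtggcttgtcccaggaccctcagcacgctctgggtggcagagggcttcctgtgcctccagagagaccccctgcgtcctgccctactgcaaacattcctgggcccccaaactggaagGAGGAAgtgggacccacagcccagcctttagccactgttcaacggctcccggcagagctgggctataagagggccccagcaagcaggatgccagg
Mpo, chr11:87793534-87793783, plus strand: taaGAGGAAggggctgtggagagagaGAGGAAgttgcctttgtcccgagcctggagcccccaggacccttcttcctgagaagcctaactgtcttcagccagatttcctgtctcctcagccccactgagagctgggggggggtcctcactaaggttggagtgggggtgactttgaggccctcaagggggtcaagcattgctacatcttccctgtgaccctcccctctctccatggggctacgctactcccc
Elane, chr10:79886062-79886311, plus strand: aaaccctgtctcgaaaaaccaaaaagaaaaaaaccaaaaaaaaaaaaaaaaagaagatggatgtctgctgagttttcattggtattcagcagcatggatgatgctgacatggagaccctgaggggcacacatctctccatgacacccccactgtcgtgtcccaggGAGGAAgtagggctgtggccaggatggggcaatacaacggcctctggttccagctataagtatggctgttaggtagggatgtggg
Csf3r, chr4:126024409-126024658, plus strand: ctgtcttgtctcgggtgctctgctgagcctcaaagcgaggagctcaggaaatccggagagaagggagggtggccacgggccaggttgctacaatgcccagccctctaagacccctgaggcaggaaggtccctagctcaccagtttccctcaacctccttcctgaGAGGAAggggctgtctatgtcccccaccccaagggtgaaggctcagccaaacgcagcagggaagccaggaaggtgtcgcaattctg
S100a8, chr3:90668821-90669070, plus strand: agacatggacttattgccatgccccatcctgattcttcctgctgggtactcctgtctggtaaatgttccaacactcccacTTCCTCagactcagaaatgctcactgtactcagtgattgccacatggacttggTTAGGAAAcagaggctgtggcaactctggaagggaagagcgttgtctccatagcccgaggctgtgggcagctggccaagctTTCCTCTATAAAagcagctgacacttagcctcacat
S100a9, chr3:90695722-90695971, minus strand: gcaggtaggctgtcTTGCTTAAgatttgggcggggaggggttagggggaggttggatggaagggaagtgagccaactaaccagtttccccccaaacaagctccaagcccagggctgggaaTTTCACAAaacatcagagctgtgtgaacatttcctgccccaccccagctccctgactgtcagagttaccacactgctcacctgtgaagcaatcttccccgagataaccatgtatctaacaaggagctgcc

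GAGGAA was found in 7 of the 10 windows (S100a8, Ltf, Lcn2, Elane, Mpo, Prtn3 and Csf3r) and in 23.3% of the 32851 windows of the same length in the table. In Elane, Csf3r and Prtn3 it began 85, 86 and 95 bases before the start used and was read on the strand of the gene. The distance in Csf3r is counted from a start that did not match the RefSeq gene table. In Mpo the motif occurred at 247 and at 224 bases before the start. TTNNGNAA was found in 5 of the 10 windows (S100a8, S100a9, Ngp, Ltf and Lcn2) against 36.8% of all windows, and TATAAA in 1 (S100a8, 30 bases before the start) against 12.4%. None of the 4 windows of Elane, Mpo, Prtn3 and Csf3r held TTNNGNAA, and both calprotectin genes did. These matches are descriptions of letters in a window and not mapped binding sites.

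The deposited values were log2 intensities after robust multi-array average (RMA) normalization, and array medians lay between 3.34 and 3.46. Arrays of the same group correlated at 0.974 to 0.986 over all clusters. The 10 mast cell markers had mean values of 9.30 to 10.13 on the 8 arrays, so the defining genes of the sort were high on each. Such levels do not show how pure the sorts were. Of these 10, 0 passed between compartments with placebo and 2 were higher in tumor MC with DC101. Markers of other cells were nevertheless present. In the peritoneum with placebo, the means over 5 B cell markers were 8.94 and 8.84 and those over 9 macrophage markers 9.004 and 8.78. The mast cell markers averaged 9.77 and 9.57 there. In the peritoneum with DC101, the macrophage markers averaged 9.18 and 9.32, beside 9.295 and 9.425 for the mast cell markers. The B cell markers averaged 7.99 and 7.55 in that group. Itgam, which encodes CD11b, read 9.46 and 9.51 in the peritoneum with placebo against 6.08 and 6.65 in the tumor with placebo.

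S100a8 read 9.72 and 10.25 in tumor MC with placebo, 10.63 and 9.84 in tumor MC with DC101, 10.68 and 10.80 in peritoneal MC with placebo and 11.58 and 11.09 in peritoneal MC with DC101. S100a9 read 8.98 and 9.50, then 9.97 and 9.16 in the tumor, and 10.21 and 10.29, then 10.64 and 10.27 in the peritoneum, in the same order of groups. Both calprotectin genes were thus above the median cluster, which averaged 3.48, on every array of both compartments. Every peritoneal array lay above every tumor array for both genes, and within each compartment the arrays of the 2 treatments overlapped, except for S100a8 in the peritoneum. Across the 8 arrays the pair had a Pearson r of 0.969 (a description, since the points share arrays, neighbouring genes and the compartment difference).

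The secondary granule genes had no such division between the compartments. Lcn2, an iron-siderophore binding protein, read 6.39 and 5.95 in tumor MC with placebo, 6.99 and 5.71 with DC101, 6.56 and 6.47 in peritoneal MC with placebo and 7.19 and 6.58 with DC101, and the tumor DC101 arrays spanned the values of the other 6 but 1. Ngp, a cystatin-like granule protein, lay between 2.89 and 4.87 on all arrays, with the lowest and the highest value both in mice given DC101. Camp, the precursor of the antimicrobial peptide CRAMP, lay between 1.33 and 3.27 on 7 arrays and at 6.22 on the remaining one, peritoneal DC101 replicate 2. Peritoneal DC101 replicate 1 read 2.63, so that the 2 arrays of that group differed more for Camp than those of any other group.

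Of the azurophil genes, Mpo and Elane had their highest values in the peritoneum with placebo. Mpo read 2.87 and 2.53 in tumor MC with placebo, 2.66 and 2.81 in tumor MC with DC101, 5.45 and 5.0 in peritoneal MC with placebo and 3.12 and 3.301 in peritoneal MC with DC101. Elane read 2.73 and 2.46, then 2.44 and 2.22 in the tumor, and 4.34 and 4.02, then 3.11 and 2.56 in the peritoneum. For both genes only the 2 peritoneal placebo arrays lay above the median cluster of 3.48. RMA gives no detection call, so the values of the other 6 arrays cannot be told from background. Prtn3 read 3.51 and 2.77, then 3.995 and 2.97 in the tumor, and 6.36 and 5.65, then 6.03 and 6.16 in the peritoneum. Its 4 peritoneal arrays overlapped between treatments and all lay above its 4 tumor arrays. Csf3r had the same division, with 5.12 and 5.29, then 5.41 and 4.60 in the tumor, and 7.22 and 6.83, then 7.57 and 6.88 in the peritoneum.

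**Figure D1:**
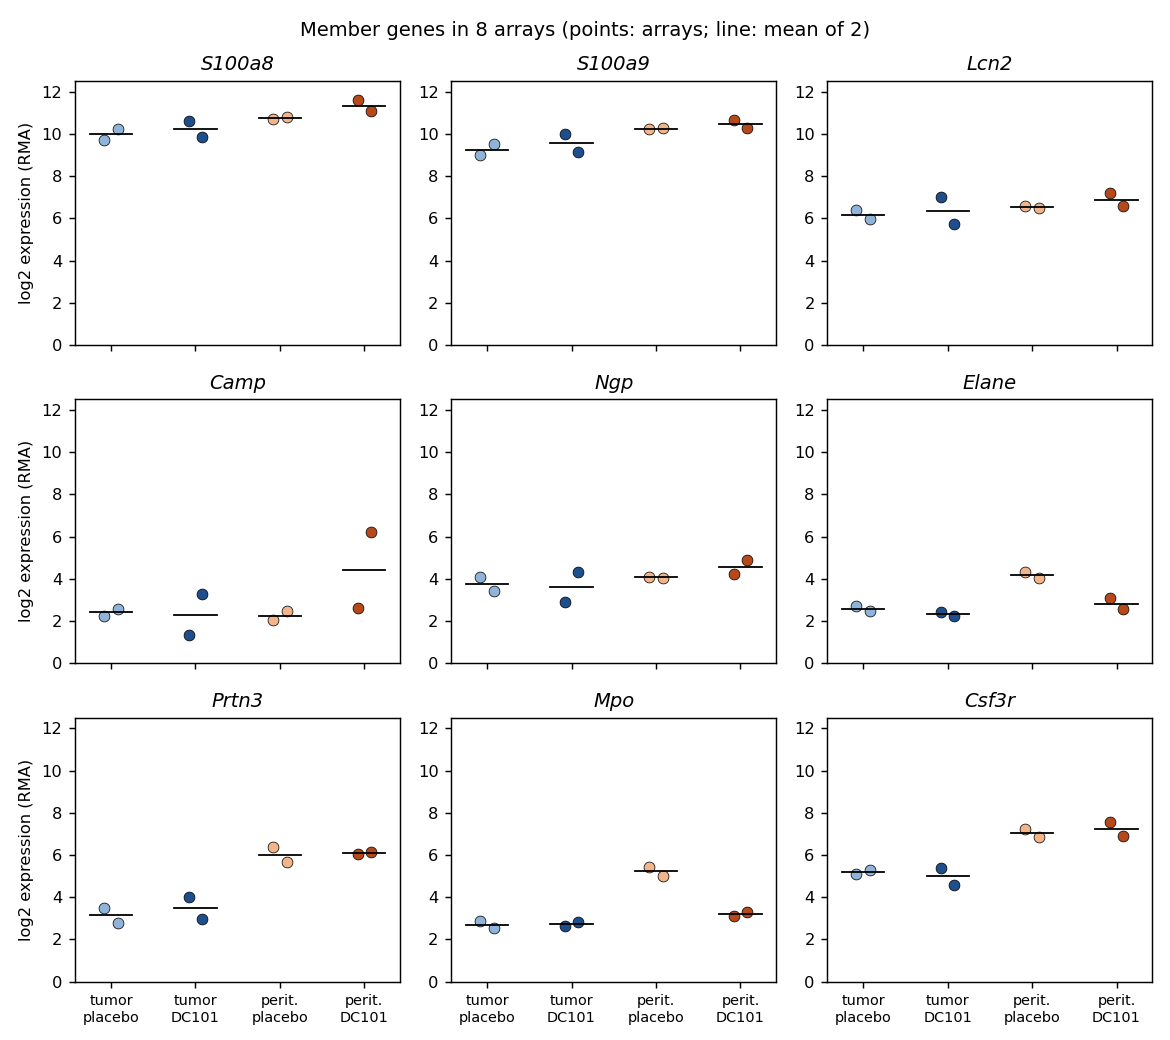
Log2 expression (RMA) of the 9 measured genes on each of the 8 arrays, with 1 panel per gene, points for arrays and lines for group means. Prtn3, Csf3r, S100a8, S100a9 and Mpo were higher on all 4 peritoneal than on all 4 tumor arrays. Mpo and Elane were highest on the 2 peritoneal placebo arrays, and Camp was high on 1 peritoneal DC101 array.

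Ranked by group mean, every measured gene but Camp had both peritoneal groups above both tumor groups. For Prtn3, Csf3r, S100a8, S100a9 and Mpo this also held array by array. Mpo lay below the median cluster on all but the 2 peritoneal placebo arrays. The 2 peritoneal groups overlapped for Prtn3, Csf3r and S100a9, and the 2 tumor groups overlapped for all of these genes. Mpo and Elane had the order peritoneum with placebo, peritoneum with DC101 and then the tumor groups, and for Elane peritoneal DC101 replicate 2 (2.56) lay within the range of tumor MC with placebo. Of the remaining genes, Camp, Ngp and Lcn2 had their highest mean in the peritoneum with DC101, and their tumor groups overlapped one another.

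The comparison of tumor with peritoneal MC addressed how MC of the tumor differ from MC of a distant site in tumor-bearing mice. The labels do not say whether both kinds of MC came from the same mice. With placebo, 5 of the 9 genes were lower in tumor MC at an adjusted p under 0.05 (limma, Benjamini-Hochberg over all 24111 clusters), 0 were higher and 4 did not pass, where 8.29% of all clusters were lower in tumor MC. The log2 difference was -2.87 for Prtn3 (standard error (SE) 0.39, adjusted p = 0.00086), -2.53 for Mpo (SE 0.23, adjusted p = 8.47e-05) and -1.59 for Elane (SE 0.25, adjusted p = 0.00198). All 3 are azurophil granule genes. Their mean values in tumor MC with placebo lay below the median cluster, where signal cannot be told from background, so these differences may understate the true ones. Csf3r was lower by 3.54-fold (log2 difference -1.82, SE 0.32, adjusted p = 0.00395) and S100a9 by 2.01-fold (log2 difference -1.01, SE 0.30, adjusted p = 0.0466). The call of S100a9 was the weakest of the 5, and it did not pass in 6 of the 8 fits that left out 1 array. In such bulk samples, fewer cells of a type and less RNA per cell cannot be told apart.

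The 4 genes that did not pass with placebo were S100a8 (log2 difference -0.76, 95% CI -1.46 to -0.05, adjusted p = 0.134), Lcn2 (-0.35, CI -1.24 to 0.55), Ngp (-0.31, CI -1.30 to 0.69) and Camp (0.16, CI -2.08 to 2.41). All 4 intervals include a log2 difference of -1, and that of Camp also includes 1.

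With DC101, 3 of the 9 genes were lower in tumor MC and 0 higher, where 9.54% of all clusters were lower. Prtn3 (log2 difference -2.61, SE 0.39, adjusted p = 0.00125) and Csf3r (-2.22, SE 0.32, adjusted p = 0.00113) were called in both comparisons, which share no array, although their spread was estimated together. S100a8 differed by -1.10 (SE 0.31, adjusted p = 0.0331), and this call was lost without tumor DC101 replicate 2 (-0.71) and without peritoneal DC101 replicate 1 (-0.85). S100a9 had a difference of -0.89 that missed the threshold (adjusted p = 0.0686). The differences of Mpo (-0.48, adjusted p = 0.195) and Elane (-0.50, adjusted p = 0.207) no longer passed, and those of Camp (-2.13), Ngp (-0.96) and Lcn2 (-0.53) did not pass either. Without peritoneal DC101 replicate 1 the difference of Camp was -3.92 and passed (adjusted p = 0.00625), and without tumor DC101 replicate 2 that of Ngp was -1.67 and passed (adjusted p = 0.021).

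**Figure D2:**
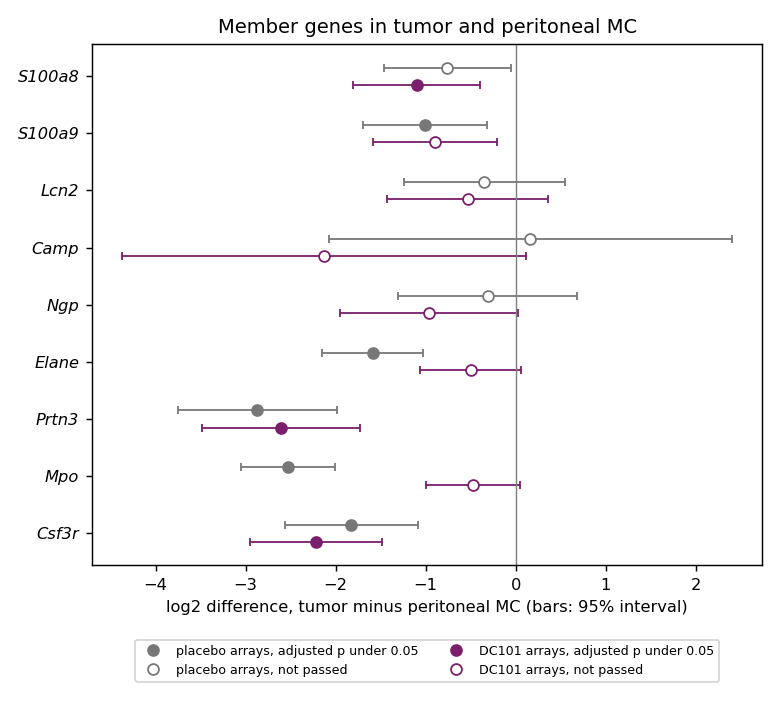
Log2 difference between tumor and peritoneal MC for each measured gene, with placebo and with DC101, as points with 95% confidence intervals. Prtn3 and Csf3r lay below 0 in both comparisons (-2.87 and -1.82 with placebo, -2.61 and -2.22 with DC101), whereas Mpo went from -2.53 with placebo to -0.48 with DC101.

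Markers of other cells also differed between the compartments. Of 7 measured neutrophil markers, of which S100a8, S100a9 and Csf3r belong to the set itself, 4 were lower in tumor MC with placebo, and the mean of the list was 5.64 and 6.06 in the tumor against 7.26 and 7.45 in the peritoneum. Ly6g, a neutrophil surface protein, read between 2.12 and 2.85 on the tumor arrays and between 3.83 and 4.32 on the peritoneal arrays. Of 9 macrophage markers 5 were lower in tumor MC with placebo and 9 with DC101, and all 5 B cell markers were lower in both, with list means of 2.76 to 3.32 in the tumor against 7.55 to 8.94 in the peritoneum. Other lists went the other way, with 4 of 6 mesothelial and stromal markers higher in tumor MC in both comparisons and 4 of 8 T and NK cell markers higher with DC101, although 3 of those 8 were lower with placebo. The part of these cells in the differences of the granule genes was not tested.

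Wider lists of neutrophil genes gave the following counts between compartments, where 11.3% of all clusters were higher in tumor MC with placebo and 12.4% with DC101. The list for specific and gelatinase granules held 14 measured genes, not all of which encode granule proteins. Of these, 7 were lower and 2 higher with placebo (median log2 difference -1.45, against -0.01 over all clusters), and 9 were lower and 1 higher with DC101. The largest differences were those of Ceacam1 (-5.26), an adhesion molecule that lymphocytes also carry, Lrg1 (-4.11), the histone deiminase gene Padi4 (-3.55) and the leukotriene B4 receptor gene Ltb4r1 (-3.46). The 2 that were higher in tumor MC, named after their values were seen, were Anxa1 (1.51), which encodes the anti-inflammatory protein annexin A1, and Ltbr (1.28), which encodes the lymphotoxin beta receptor. Of 9 other azurophil granule genes 3 were lower and 0 higher with placebo, among them Ctsg (-3.83, adjusted p = 5.96e-06), which encodes cathepsin G and read 6.02 and 6.20 in the tumor against 10.01 and 9.88 in the peritoneum. Ctsg is a protease gene of neutrophils and monocytes that some mast cells also express. The others that were lower were Igsf6 (6.16 and 6.14 in the tumor against 8.81 and 8.72 in the peritoneum) and Nkg7 (6.28 and 7.96 against 8.79 and 8.89). Nkg7 is chiefly a gene of T and NK cells, so this count is of the list and not of azurophil granule proteins alone. With DC101, 2 of the 9 other azurophil granule genes were lower and 0 higher, with a median of 0.14. Of 5 granulocyte transcription factor genes, 0 passed with placebo. With DC101, 3 of the 5 were lower and 0 higher, a count that changed when 1 array was left out.

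Of 18 mature neutrophil genes, 8 were lower and 1 higher in tumor MC with placebo, and 7 were lower and 2 higher with DC101. Among the lower ones were Itgam (-3.12), the C-type lectin gene Clec4d (-2.82), Retnlg (-2.30) and the formyl peptide receptor gene Fpr2 (-2.28), whereas Il1r2, a decoy receptor for interleukin 1, was higher (2.61 with DC101). Of 12 other S100 genes, 2 were higher and 1 lower with placebo and 4 higher and 1 lower with DC101, so the direction of the calprotectin pair was not that of most called S100 genes. S100a16 was higher by 2.03 and S100a5 lower by 2.72 with placebo on the log2 scale. Of 11 genes for receptors, the ligand or inhibitors of the proteins of the set, 5 were lower and 1 higher with placebo and 6 were lower and 2 higher with DC101. These included Slpi, an inhibitor of elastase (-3.25 with placebo), and Lrp1, an endocytic receptor for protease-inhibitor complexes (1.41). Itgam and Fpr2, which were lower with placebo, are on this list and on that of the mature neutrophil genes, so both counts include them. Csf3, which encodes G-CSF and is named for that role after its values were seen, was 1 of the 2 higher ones with DC101, but it read between 2.29 and 3.23 on all 8 arrays, below the median cluster, so that no expression can be read from it. When 1 array was left out, this list had 2 to 5 lower and 0 to 2 higher with DC101 (2 lower without tumor DC101 replicate 2, and 3 lower and 0 higher without tumor DC101 replicate 1 or peritoneal DC101 replicate 1) and 3 to 5 lower with placebo, and the other S100 genes had 2 to 4 higher with DC101 (2 without tumor DC101 replicate 1) and 1 to 2 higher with placebo. The mature neutrophil genes had 1 to 2 higher with DC101.

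The effect of DC101 on MC of the tumor was compared next. None of the 9 genes passed the test (0 of 9, adjusted p = 1 for each), as was the case for 0% of all clusters. At an unadjusted p under 0.05 the counts were 0 of 9 and 1215 of 24111, and at the thresholds named by the study, taken here as an unadjusted p under 0.05 and an absolute log2 fold change of 1 or more, they were 0 of 9 and 0.68%. The log2 fold changes ran from -0.26 (Elane) to 0.35 (Prtn3) with a median of 0.03. For 8 of the 9 genes the arrays of the 2 treatments overlapped. The ninth, Elane, read lower on both DC101 arrays, at a level below the median cluster, where 36.3% of all clusters did not overlap. The 95% confidence intervals were narrowest for Mpo (log2 fold change 0.03, CI -0.49 to 0.55) and widest for Camp (-0.12, CI -2.36 to 2.12). For S100a8 (0.25, CI -0.46 to 0.95) and S100a9 (0.32, CI -0.37 to 1.01) the intervals left room for changes of either sign.

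The tumor arrays differed more within than between treatments for several of these genes. S100a8 and S100a9 were both highest on placebo replicate 2 and DC101 replicate 1 (10.25 and 10.63, and 9.50 and 9.97) and lowest on placebo replicate 1 and DC101 replicate 2 (9.72 and 9.84, and 8.98 and 9.16). Stfa2l1, a cystatin gene of mature neutrophils, read 7.18 and 7.33 on the former pair and 6.31 on each of the latter. Csf3r had the same order, so that 4 of the 7 neutrophil markers were higher on placebo replicate 2 and DC101 replicate 1. Of these 4, S100a8, S100a9 and Csf3r are genes of the set. Ly6g had the reverse order, and Retnlg and Mmp8 had neither. Of the 10 mast cell markers 9 had the opposite order, and Tpsb2 did not. Kit, which encodes CD117, read 9.26 and 9.36 on placebo replicate 2 and DC101 replicate 1 and 10.20 and 10.11 on the other two tumor arrays, and Ms4a2, which encodes the beta chain of the IgE receptor, read 7.48 and 7.36 against 8.83 and 8.34. Within the set, Ngp and Mpo had the order of the mast cell genes, and Camp, Lcn2, Elane and Prtn3 had neither. This order was picked after the values were seen, and the share of all clusters with it was not counted, so the counts have no background to be read against. No test was made between these pairs of arrays. A fit that paired the tumor arrays crosswise is given with the alternatives.

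**Figure D3:**
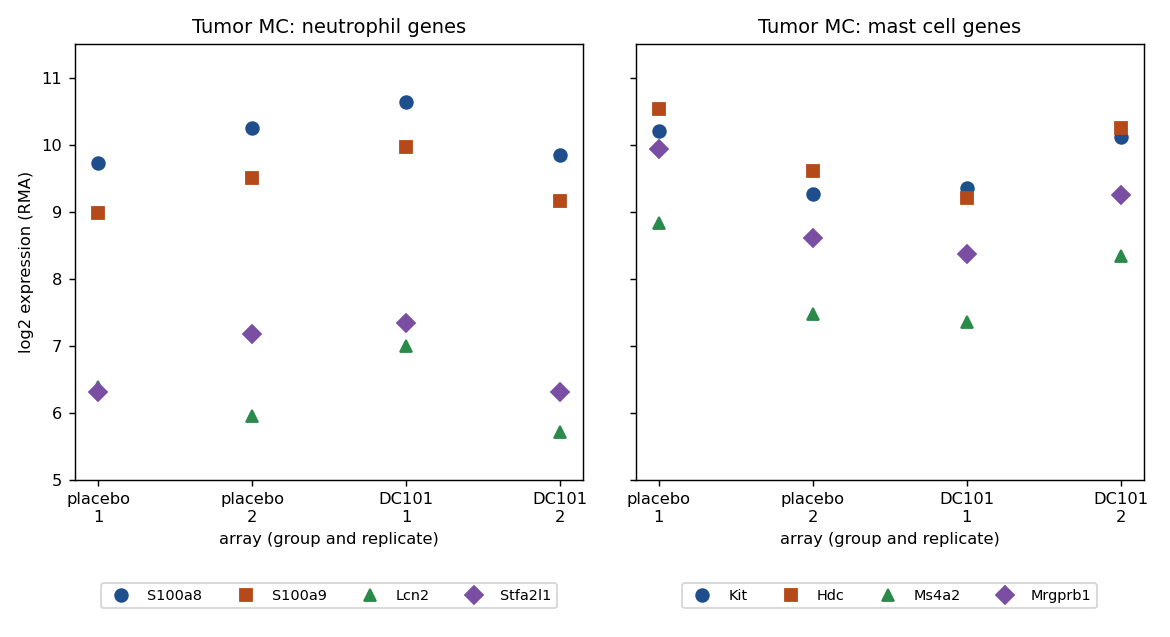
Log2 expression (RMA) on the 4 tumor MC arrays of 4 genes linked to neutrophils (left) and 4 mast cell genes (right), with 1 point per array. S100a8, S100a9 and Stfa2l1 were higher on placebo replicate 2 and DC101 replicate 1, on which Kit, Hdc, Ms4a2 and Mrgprb1 were lower, and Lcn2 had a different order. The genes shown were chosen after their values were seen.

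In peritoneal MC, 2 of the 9 genes fell with DC101 (where 2.1% of all clusters fell) and 0 rose (where 2.48% rose). Mpo fell by 2.02 on the log2 scale (SE 0.23, 95% CI -2.54 to -1.49, adjusted p = 0.0032), and Elane by 1.35 (SE 0.25, CI -1.91 to -0.79, adjusted p = 0.0192). Both genes reached values in this group that lay below the median cluster on each array, where signal cannot be told from background, so these values may understate the changes. The change of Mpo passed in all 8 fits that left out 1 array, with values from -2.24 to -1.79. That of Elane did not pass without peritoneal placebo replicate 1 (-1.19, adjusted p = 0.0878), without peritoneal placebo replicate 2 (-1.51, adjusted p = 0.066) or without peritoneal DC101 replicate 2 (-1.07, adjusted p = 0.0836).

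Prtn3 encodes the other azurophil serine protease of the set, and the gene lies directly beside Elane on chromosome 10. Its log2 fold change in peritoneal MC was 0.09 (SE 0.39, CI -0.79 to 0.97, adjusted p = 0.938), and its arrays overlapped between treatments. The difference between the responses of Elane and Prtn3 was not tested. The other genes did not pass either, namely S100a8 (0.59, adjusted p = 0.363), Ngp (0.49, adjusted p = 0.628), Lcn2 (0.37, adjusted p = 0.697), S100a9 (0.20, adjusted p = 0.791) and Csf3r (0.20, adjusted p = 0.81). Camp had the largest difference of the set, 2.17, with an SE of 0.99 and a CI from -0.07 to 4.42 (adjusted p = 0.28). This value rested on 1 array: it was 0.38 without peritoneal DC101 replicate 2, and it was 3.97 and passed (adjusted p = 0.0274) without peritoneal DC101 replicate 1. Of the 9 genes, 4 were higher (S100a8, Camp, Ngp and Lcn2) and 2 lower on both DC101 arrays than on both placebo arrays, where the arrays did not overlap for 46% of all clusters.

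**Figure D4:**
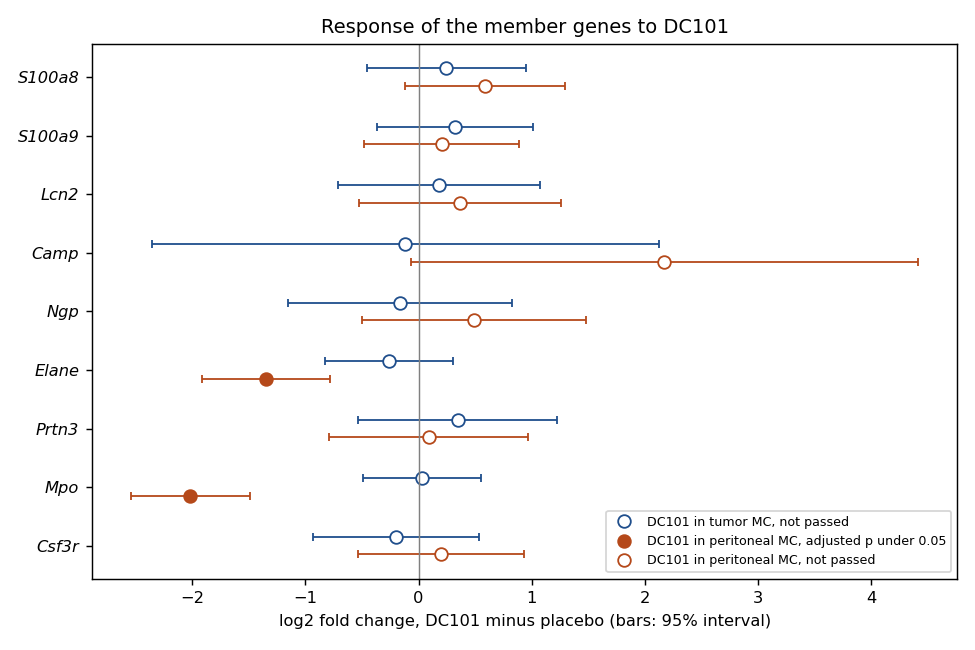
Log2 fold change with DC101 against placebo for each measured gene in tumor and in peritoneal MC, as points with 95% confidence intervals. In the peritoneum Mpo (-2.02) and Elane (-1.35) lay below 0, the interval of Camp (2.17) was the widest and reached 0, and in the tumor all 9 intervals included 0.

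Whether DC101 acted differently in the 2 compartments was tested as an interaction, the tumor log2 fold change minus the peritoneal one. Mpo passed (2.05, SE 0.33, CI 1.31 to 2.79, adjusted p = 0.0341), 1 of 9 genes, where 0.353% of all clusters were called in this direction and 0.805% in either. It did not pass in any of the 8 fits that left out 1 array (1.82 to 2.28, adjusted p from 0.0596 to 0.147), nor with the replicate number as a block (adjusted p = 0.0574). The tumor values of Mpo, from 2.53 to 2.87, lay below the median cluster with either treatment. The interaction of Elane was 1.09 and did not pass (adjusted p = 0.218), and the other 7 genes had adjusted p-values of 0.55 or more.

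The wider lists in peritoneal MC with DC101 did not all have the direction of Mpo and Elane. Of 14 genes on the specific and gelatinase granule list 5 rose and 0 fell, with a median of 0.68 against -0.02 over all clusters. Of these 5, Padi4 encodes a histone deiminase and Ltbr a receptor, so the count is of the list and not of granule proteins alone. Mmp9, which encodes the gelatinase MMP-9, read 5.61 and 6.09 with placebo and 8.20 and 7.93 with DC101, and rose by 2.22 (SE 0.25, adjusted p = 0.0032). Adam8 rose by 1.81 (adjusted p = 0.0104), the peptidoglycan recognition gene Pglyrp1 by 1.75 (adjusted p = 0.0351), Padi4 by 1.22 (adjusted p = 0.0202) and Ltbr, named here because it was the only other one called, by 1.04 (adjusted p = 0.0251). The count was 2 without either peritoneal placebo array or without peritoneal DC101 replicate 1, and 3 without peritoneal DC101 replicate 2 or without either tumor DC101 array, and Mmp9 passed in each of these fits. Without moderation of the variances 0 of the 5 passed, as was so for every wider list call in this comparison (Mmp9, adjusted p = 0.0829), with the replicate block Pglyrp1 no longer passed (adjusted p = 0.0591), and with only the peritoneal arrays Padi4 (adjusted p = 0.061) and Ltbr (0.0949) did not. Mmp9 and Adam8 are also expressed by macrophages.

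Of 5 granulocyte transcription factor genes 1 rose, namely Cebpe, which directs the formation of secondary granules in neutrophils and is also required for eosinophils. It read 5.36 and 3.91 with placebo and 7.80 and 7.03 with DC101 and rose by 2.78 (SE 0.53, adjusted p = 0.0213), but did not pass without peritoneal placebo replicate 2 (2.05, adjusted p = 0.11) or without peritoneal DC101 replicate 1 (2.39, adjusted p = 0.112). Lcn2, Camp and Ngp, the secondary granule genes of the set, did not pass in the same arrays. Of 18 mature neutrophil genes 2 rose (Retnlg by 2.08, adjusted p = 0.0234, and the NADPH oxidase gene Ncf1 by 1.03, adjusted p = 0.0267) and 2 fell (Fpr2, -1.57, adjusted p = 0.0195, and Clec4e, -1.35, adjusted p = 0.037), with a median of 0.11. Retnlg read 7.03 and 7.31 with placebo and 9.36 and 9.15 with DC101, without overlap. The calls of Retnlg, Ncf1 and Clec4e were each lost on leaving out any 1 of the 4 peritoneal arrays, and that of Fpr2 on leaving out either placebo array or DC101 replicate 2.

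Of the 9 other azurophil granule genes 1 fell, Nkg7 (-2.50, adjusted p = 0.0175), which is chiefly a gene of T and NK cells, and the median was -0.26. This call was also lost on leaving out any 1 of the 4 peritoneal arrays. Ctsg had a log2 fold change of -0.64 that did not pass (adjusted p = 0.149). Of 12 other S100 genes 1 fell, S100a5 (-1.33, adjusted p = 0.0363, not passing without any 1 of the 4 peritoneal or 2 tumor DC101 arrays), with a median of -0.27. Of 11 receptor, ligand and inhibitor genes 1 fell, with a median of 0.31. It was Fpr2, which also receives the peptide encoded by Camp and is already counted among the mature neutrophil genes. In tumor MC with DC101, 0 genes of each of these 6 lists passed, and the list medians lay between -0.15 and 0.32.

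**Figure D5:**
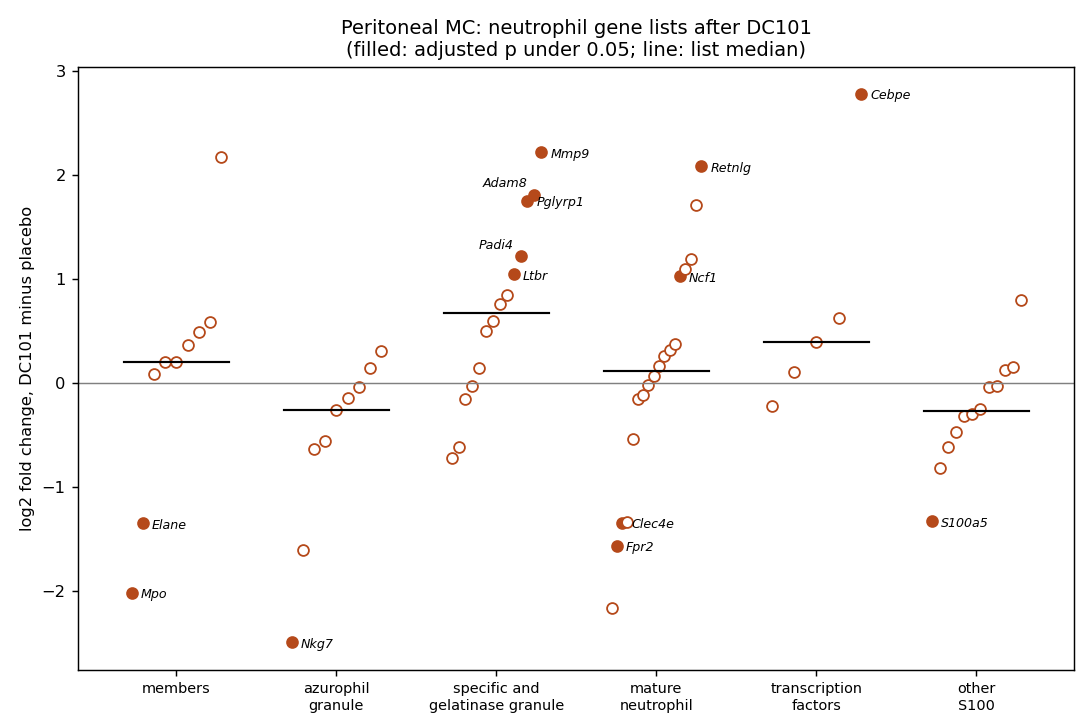
Log2 fold change with DC101 against placebo in peritoneal MC for the measured genes and 5 wider lists, with 1 point per gene, filled where the adjusted p was under 0.05, and a line at each list's median. The 2 called genes of the set (Mpo and Elane) lay below 0 and the called mature neutrophil genes on both sides. The 5 called genes of the specific and gelatinase granule list, which include Padi4 and Ltbr, lay above 0.

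Other cell markers changed in the same peritoneal comparison. Of 5 measured eosinophil markers 3 rose, among them the eotaxin receptor gene Ccr3 (3.82) and Siglecf (3.52), and the list mean was 3.71 and 3.79 with placebo against 5.54 and 5.29 with DC101. Epx, the eosinophil peroxidase, stayed between 2.08 and 2.59 on these 4 arrays, below the median cluster. Of 8 T and NK cell markers 7 fell, with list means of 6.00 and 6.26 against 4.05 and 3.29, and 2 of 5 B cell markers fell. When 1 array was left out in turn, between 2 and 7 of the T and NK cell markers, 2 of the eosinophil markers and between 0 and 2 of the B cell markers passed. Of 9 macrophage markers 2 rose and 1 fell, 1 of 7 neutrophil markers rose (Retnlg), and 0 of the 10 mast cell markers passed. Of the 4 basophil markers Mcpt8, which the study treats as a gene of MC, fell by 2.60 and Itga2 rose by 2.55. The part of these cells in the fall of Mpo and Elane, or in the rise of Mmp9 and Cebpe, was not tested.

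Position on the chromosome was examined through the nearest measured genes on each side of each gene of the set, 32 distinct neighbours outside the set. In peritoneal MC with DC101 1 of the 32 rose (Ptpn23, beside Ngp on chromosome 9, 0.97, adjusted p = 0.0225) and 1 fell (Nme6, beside Camp on chromosome 9, -1.09, adjusted p = 0.0272). Over all clusters, 2.48% rose and 2.1% fell, so these counts are near the background. Neither Ngp nor Camp passed in that comparison. Between compartments with placebo 3 neighbours were lower and 7 higher in tumor MC, and the count was the same with DC101. Of all clusters, 8.29% were lower and 11.3% higher with placebo, and 9.54% were lower and 12.4% higher with DC101. Plppr3 and Med16, the nearest measured genes on either side of Prtn3 and Elane, had log2 differences of -0.48 and 1.13 with placebo, against -2.87 and -1.59 for the pair. In the S100 cluster of chromosome 3, S100a6 had a difference of -0.10 that did not pass (adjusted p = 0.787), beside -0.76 and -1.01 for S100a8 and S100a9. S100a7a, directly beside S100a8, had a difference of -0.66 (adjusted p = 0.125) at a mean level below the median cluster. The microRNA gene Mir142, near Mpo on chromosome 11 and a gene expressed throughout the haematopoietic system, was among the 3 that were lower (-3.56).

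Likeness of pattern was measured as Pearson's r over the 8 arrays among 5675 genes whose group means spanned at least 1 log2 unit. Mpo was closest to Mir5104 (0.994), Nol8 (0.988) and Cecr2 (0.987), and Elane to Rdh12 (0.996), Dhx57 (0.984) and Rad1 (0.978). Prtn3 was closest to Icam2 (0.983), Morc3 and Kcnrg (both 0.981), and Csf3r to C030013C21Rik (0.986), A430078G23Rik (0.983) and Ikzf3 (0.98). Of the 7 genes of the set with such a span, S100a8 and S100a9 were the only ones that appeared among each other's 3 closest. With 8 arrays in 4 groups such values are set largely by the group means, and they describe these arrays only.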

How the data were processed

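Total RNA was purified from the sorted MC, and cDNA made from it was measured on Affymetrix Mouse Gene 2.1 arrays. The authors deposited log2 expression values normalized by RMA, which corrects background, quantile-normalizes the arrays and summarises probes into 24111 transcript clusters. For the values, a genome build and an annotation version are not given in the sources consulted. Of the clusters, 21508 carry 1 symbol in the platform annotation, 566 several and 2037 none, and 21399 of the first were found in the RefSeq gene table. Sequencing depth does not apply to arrays, and their number, 2 per group, limits the precision.

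The deposited values were used unchanged. A model with 1 mean per group was fitted to all 8 arrays and all clusters with limma 3.58.1 in R 4.3.3 (4 residual and 4.93 prior degrees of freedom), and each contrast was adjusted by the Benjamini-Hochberg method over all clusters. Genes were called at an adjusted p under 0.05. Exact permutation of 2 against 2 arrays cannot reach that threshold. The scripts were tested on simulated data. The study names an f-test with cutoffs of 0.05 for p and 1 for the log2 fold change and no adjustment, and these cutoffs on unadjusted p served as an alternative. The other alternatives were the variance prior, the scaling, a filter on dim clusters, clusters with 1 symbol, a replicate block, array weights, the arrays in the fit and leaving out each array.

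All genes of the set were described. Of each wider list, up to 4 called genes per contrast, the largest in size, were named, and exceptions are stated. Neighbours were the nearest 2 measured genes on each side. The members, lists and tests were chosen with earlier results of these data known.

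Array numbers were not used to pair samples. Deviations from the group means of same-numbered arrays correlated at -0.165 between the 2 tumor groups and at -0.0245 to 0.0172 between other groups.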

Additional observations from a re-analysis of the deposited data

Results flagged for a closer look

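The response to DC101 was compared between the compartments by the interaction test (tumor log2 fold change minus peritoneal log2 fold change, limma, adjusted p under 0.05). It passed for 1 gene of the set and for 12 of all the measured genes of the lists beside it, where 0.805% of all clusters passed. The interactions of the 12 list genes were not refitted singly under the alternatives. Without moderation of the variances 0 of 24111 clusters passed, so none of these calls was kept there. For Mpo the interaction was 2.05 (adjusted p = 0.0341), with a log2 fold change of 0.03 in the tumor and -2.02 in the peritoneum. Its tumor values (2.53 to 2.87) lay below the median cluster with placebo too, so a fall there could not be measured, and the call was lost when any 1 array was left out. For Mmp9, a gelatinase granule gene, it was -2.56 (adjusted p = 0.0225), with -0.35 in the tumor and 2.22 in the peritoneum.

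The remaining 11 genes were markers of other cells. Of the macrophage and monocyte markers, Adgre1 had an interaction of -1.83 (adjusted p = 0.0475), Mrc1 one of -3.68 (adjusted p = 0.0122), F13a1 one of -2.93 (adjusted p = 0.0187) and Marco one of 3.57 (adjusted p = 0.0295). Of the eosinophil and basophil markers, Siglecf had an interaction of -3.75 (adjusted p = 0.0266), Ccr3 one of -3.61 (adjusted p = 0.0114), Itga2 one of -3.88 (adjusted p = 0.0266) and Mcpt8 one of 4.31 (adjusted p = 0.00521). Of the T, NK and stromal cell markers, Ncr1 had an interaction of 3.22 (adjusted p = 0.0122), Il2rb one of 2.74 (adjusted p = 0.0478) and Dcn one of 1.99 (adjusted p = 0.033). The tumor values of Marco (1.77 to 2.38) were likewise below the median cluster with either treatment, so its interaction has the same limit. Groups of 2 arrays are too small for a test of outlying arrays.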

How the results depend on the processing

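Under the alternatives, 724 of 795 values of single genes kept their direction and their side of the threshold, 31 no longer passed, 8 newly passed and 32 changed sign, all of the last when 1 array was left out. In peritoneal MC with DC101, 2 called genes became 0 without moderation of the variances, 0 with dim clusters left out (which leaves out Mpo, Elane and Camp) and 1 (Mpo) with only the arrays of the contrast. The interaction, with 1, became 0 without moderation, 0 with dim clusters left out, 0 with the replicate block and 2 (Elane and Mpo) at the study's thresholds. Between compartments with placebo, 5 became 3 without moderation (Elane, Mpo and Prtn3) and 3 with dim clusters left out, and with DC101, 3 became 1 without moderation (Csf3r). The tumor count stayed at 0 under every alternative.

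Leaving out each array in turn gave 0 in tumor MC, 1 to 3 in peritoneal MC, 0 for the interaction, 4 to 5 between compartments with placebo and 3 to 4 with DC101. Where a sign changed, none of the values passed. For DC101 in tumor MC these ranges were -0.15 to 0.64 for S100a8, -0.085 to 0.73 for S100a9, -1.09 to 0.85 for Camp, -0.87 to 0.54 for Ngp, -0.46 to 0.82 for Lcn2, -0.14 to 0.20 for Mpo, -0.16 to 0.86 for Prtn3 and -0.60 to 0.20 for Csf3r. In peritoneal MC they were -0.27 to 0.45 for Prtn3 and -0.15 to 0.54 for Csf3r. For the interaction they were -0.74 to 0.051 for S100a8, -0.29 to 0.52 for S100a9, -1.36 to 0.054 for Ngp, -0.83 to 0.46 for Lcn2, -0.25 to 0.77 for Prtn3 and -0.80 to 0.0047 for Csf3r. Between compartments they were -0.057 to 0.38 for Camp and -0.65 to 0.030 for Ngp with placebo, and -1.17 to 0.11 for Lcn2 with DC101. A fit that leaves 1 array in a group assumes that it varies like the other groups.

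With the replicate block, S100a9 with placebo (adjusted p = 0.0645) and the interaction of Mpo (adjusted p = 0.0574) no longer passed, and no other call among the genes of the set changed. In the wider lists in peritoneal MC, the block ended the calls of Pglyrp1 (adjusted p = 0.0591), Clec4e (0.0602) and S100a5 (0.0597), the fit of only the peritoneal arrays those of Padi4 (0.061), Ltbr (0.0949), Ncf1 (0.0798), Fpr2 (0.078) and S100a5 (0.0707), and the fit without moderation all of the 12 (adjusted p from 0.0829). Array weights also ended the call of S100a9 (adjusted p = 0.0625) and those of Pglyrp1 (0.0719), Clec4e (0.0752), Retnlg (0.0568) and S100a5 (0.0629) in peritoneal MC. S100a9 with DC101 newly passed with an intensity trend (adjusted p = 0.0227), cyclic loess (0.0472), median centring (0.0461) and dim clusters left out (0.0432), and S100a8 with DC101 no longer passed with only the arrays of the contrast (adjusted p = 0.054). Over all clusters, 1105 calls in peritoneal MC became 33 without moderation, 453 with only those arrays and 311 to 906 when 1 array was left out, and 194 for the interaction became 463 with an intensity trend, 346 with dim clusters left out, 0 without moderation, 113 with the block and 22 to 187 when 1 array was left out. Between compartments, 4723 with placebo became 2716 and 5292 with DC101 became 3357 without moderation, and they became 3069 to 4762 and 3311 to 5358 when 1 array was left out. Pairing the tumor arrays crosswise, added after the data were seen, gave 1 called cluster in place of 0. The cause of these changes was not tested. Signals near background limit what can be read of Camp, Elane and Mpo.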
